A study of Mus musculus with 13 samples.

Results

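Egr1, Egr2, Egr3, Nr4a1, Nr4a2, Nr4a3, Ier2, Ier3, Socs3 and Zfp36 were followed in mouse lung after bleomycin. These 10 immediate early and early response genes were chosen by symbol from a table of counts for 54513 genes, and all 10 passed the filter on low counts. The mice were C57Bl/6 males aged 7 to 8 weeks, whose lungs had been fixed in formalin and kept in paraffin, with no transgene or mutation named in the labels. Bleomycin, a DNA-damaging drug used to model lung fibrosis, had been given 21 days earlier to the mice of batch 1 (4 libraries, replicates 5 to 8) and of batch 2 (4 libraries, replicates 1 to 4). Saline mice (5 libraries, replicates 1 to 5, also at day 21) were all in batch 1. Each library came from 8 ng of total RNA out of a 10 µm coronal section. The tested questions were which of these genes differ between batch 1 bleomycin and saline, and how batch 2 bleomycin stands against both.

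Immediate early genes are transcribed within minutes of a stimulus, such as a growth factor, a cytokine or mechanical stress, without any new protein having to be made first. MAP kinases, serum response factor (SRF) and CREB act on their promoters, and many of the RNAs are short-lived because their untranslated ends hold AU-rich elements. In lung, Egr1 is known as a transcription factor of the response to injury and to TGF-beta, Socs3 as a feedback inhibitor of IL-6 signalling, and Zfp36 as a protein that destroys the mRNAs of inflammatory cytokines. RNA of whole lung sections was measured, so fewer cells of a type and less RNA per cell cannot be told apart.

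Promoter windows of 4 of these genes are shown because the factors that act on immediate early genes bind there. RefSeq windows on build GRCm38.p6 were at hand for 7 of the 10 genes, namely Egr2, Nr4a1, Nr4a2, Nr4a3, Ier3, Socs3 and Zfp36. Each sequence is the 250 bases before the annotated start, read 5′ to 3′ on the strand of the gene. Capitals mark a CArG box (the SRF site), the CRE core TGACG, the STAT motif TTCNNNGAA and the EGR motif GCGNGGGCG, each on either strand, so that the CRE core of the other strand shows as its reverse complement. The intervals are chr7:28379229-28379478 for Zfp36 (minus strand), chr10:67537619-67537868 for one of the Egr2 starts (plus strand), chr11:117969367-117969616 for Socs3 (minus strand) and chr15:101266596-101266845 for Nr4a1 (plus strand).
Zfp36: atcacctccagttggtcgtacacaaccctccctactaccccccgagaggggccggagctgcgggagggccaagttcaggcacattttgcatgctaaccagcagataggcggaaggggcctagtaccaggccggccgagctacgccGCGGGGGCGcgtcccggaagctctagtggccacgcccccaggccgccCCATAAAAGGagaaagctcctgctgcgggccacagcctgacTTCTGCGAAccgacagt
Egr2: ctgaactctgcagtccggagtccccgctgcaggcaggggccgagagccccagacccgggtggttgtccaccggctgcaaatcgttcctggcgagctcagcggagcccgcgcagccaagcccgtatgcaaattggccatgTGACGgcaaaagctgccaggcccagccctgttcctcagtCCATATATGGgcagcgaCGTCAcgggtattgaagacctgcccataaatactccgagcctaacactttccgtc
Socs3: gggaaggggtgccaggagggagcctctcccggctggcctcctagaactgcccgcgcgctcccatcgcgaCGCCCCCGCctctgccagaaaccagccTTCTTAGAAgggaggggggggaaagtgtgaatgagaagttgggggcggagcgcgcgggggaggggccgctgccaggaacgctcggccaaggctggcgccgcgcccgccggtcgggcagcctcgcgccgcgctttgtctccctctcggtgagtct
Nr4a1: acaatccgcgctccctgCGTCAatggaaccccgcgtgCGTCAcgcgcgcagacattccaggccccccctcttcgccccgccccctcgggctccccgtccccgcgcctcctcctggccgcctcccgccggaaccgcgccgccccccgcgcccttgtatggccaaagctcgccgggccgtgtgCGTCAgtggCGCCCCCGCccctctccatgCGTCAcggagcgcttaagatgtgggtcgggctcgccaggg
In the Zfp36 promoter the capitals are, in order, an EGR motif, a CArG box and a STAT motif. The Egr2 sequence holds a CArG box between CRE cores, the Socs3 sequence an EGR motif and a STAT motif, and the Nr4a1 sequence several CRE cores and an EGR motif.

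Motifs were searched on both strands of windows of 300 bases, 250 before and 50 after each start, in all 32851 windows of the table. A CArG box was found in windows of Egr2 and Zfp36 and in 1.63% of all windows. The STAT motif was found for Socs3 and Zfp36 and in 8.3% of all windows, and the EGR motif for Nr4a1, Nr4a2, Socs3 and Zfp36 and in 5.55%. CRE cores were found for Egr2, Nr4a1, Nr4a2 and Nr4a3 and in 20.8% of all windows. The full CRE TGACGTCA, which contains the core, was in 1.79% of all windows and the NR4A motif AAAGGTCA in 1.51%, and neither was in a window of these genes. The 7 genes have 11 windows, several of them of Egr2, and a gene is named where any of its windows holds the motif. The genes named and the shares of windows are thus unlike measures. A match is a run of letters and no measurement of binding.

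The batch 1 bleomycin libraries held 21727502 to 28885129 counts, those of batch 2 bleomycin 6337147 to 12982422 and the saline libraries 9527580 to 26043735. Batch 2 was thus the shallowest set, and the counts behind each value of the 10 genes ran from 21 (Egr3 in saline replicate 2) to 6554 (Egr1 in bleomycin replicate 6). Bleomycin replicate 8 has a title that says control, while its treatment label and library name say bleomycin, and it was kept as bleomycin with results given without it. It stood above every saline library for 7 of the 10 genes and for 33.2% of all tested genes. It was also the library least like the others of its group. Chi-square per degree of freedom between the counts of paired libraries was 161.8 to 266.7 for its pairs with replicates 5 to 7. Among replicates 5 to 7 it was 36.4 to 84.1, and replicate 8 was not compared with saline libraries in this way. The library names carry numbers that run apart in the 3 groups, so a set of samples and a treatment cannot be told apart if those numbers mark sets. Alveolar markers (Sftpc, Sftpb, Sftpa1, Lamp3, Ager, Hopx, Rtkn2) were present in every group, at a summed 2678 to 5164 CPM in batch 1 bleomycin, 3645 to 8286 CPM in batch 2 bleomycin and 6434 to 8436 CPM in saline. CPM are counts scaled to a TMM-adjusted library total of 1000000.

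In batch 1 bleomycin lungs 7 of the 10 genes were higher than in saline lungs, namely Egr1, Egr2, Egr3, Nr4a1, Ier2, Socs3 and Zfp36. Socs3 was 7.13-fold higher, Egr2 5.76-fold, Egr1 4.45-fold, Egr3 3.34-fold, Nr4a1 3.33-fold, Zfp36 2.33-fold and Ier2 1.69-fold. Nr4a2, Nr4a3 and Ier3 did not pass the test. In batch 2 bleomycin lungs Socs3 (3.58-fold) and Egr2 (2.28-fold) were higher than in saline, and the other 8 did not pass. Set directly against batch 1 bleomycin, all 10 genes had lower fitted values in batch 2, and Nr4a1 and Zfp36 passed the test.

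Tests were edgeR's quasi-likelihood tests over 20468 genes, and a gene was called at a Benjamini-Hochberg adjusted p under 0.05. For batch 1 bleomycin against saline, 17.5% of all tested genes were called higher and 13.4% lower. Beside these, 7 of the 10 genes were called higher and 0 lower, with 0 lower also at an unadjusted p under 0.05, by DESeq2 and by limma-voom. The median log2 change of the 10 genes was 1.48, against 0.03 over all genes tested. In the same 7 genes every batch 1 bleomycin library stood above every saline library, which held for 14.0% of all tested genes. For batch 2 bleomycin against saline, 15.7% of all genes were called higher and 13.2% lower, against 2 and 0 of the 10 genes, whose median log2 change was 0.09 beside -0.01 over all genes. At an unadjusted p under 0.05 there were 4 such genes, Egr2 and Socs3 with higher and Nr4a2 and Nr4a3 with lower values. The share of all genes under that unadjusted threshold is not given here. Counts at it therefore have no such share beside them, here and below. DESeq2 called 1 of the 10 genes lower, Nr4a3 (log2 change -0.86, adjusted p = 0.0226), and limma-voom none. Over all genes DESeq2 called 3331 of 26082 lower and limma-voom 1794 of 20468. Every batch 2 library stood above every saline library for Egr2 and Socs3, and for 15.3% of all genes.

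For batch 2 against batch 1 bleomycin, 1.13% of all tested genes were called lower and 0.547% higher. Against that, 2 of the 10 genes were called lower. At an unadjusted p under 0.05 there were 8, a looser threshold than that of the shares above, with no share of all genes given. Every batch 2 library was below every batch 1 bleomycin library for 6 genes (Egr1, Egr3, Nr4a1, Nr4a2, Ier2, Zfp36) and for 4.8% of all tested genes. The median log2 difference of the 10 genes was -1.1, beside -0.03 over all genes. Both bleomycin groups were set against the same saline libraries, so these comparisons are not independent of each other. DESeq2 called 7 of the 10 lower in batch 2 (Egr1, Egr2, Egr3, Nr4a1, Ier2, Socs3, Zfp36), and limma-voom called Zfp36 only. Over all genes DESeq2 called 421 of 23820 lower and limma-voom 28 of 20468.

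**Figure D1:**
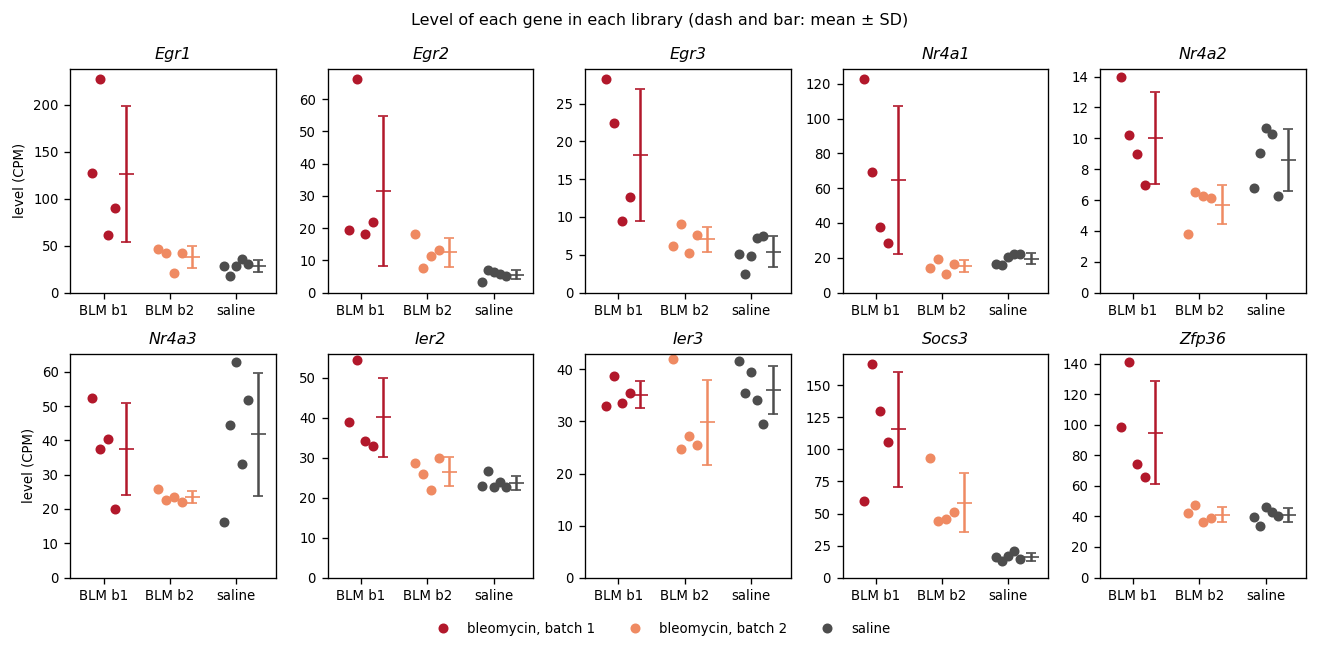
CPM of each of the 10 genes in every library (points), with the mean ± SD of each group beside them, for batch 1 bleomycin (BLM b1), batch 2 bleomycin (BLM b2) and saline, each panel on its own linear axis from 0. The batch 1 bleomycin points lie above all saline points for Egr1, Egr2, Egr3, Nr4a1, Ier2, Socs3 and Zfp36, and the groups overlap for Nr4a2, Nr4a3 and Ier3.

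The plot of CPM by library shows the spread behind each of these comparisons, which differed between groups. The coefficient of variation of Egr1 was 57.4% in batch 1 bleomycin, 31.2% in batch 2 bleomycin and 23.1% in saline. That of Zfp36 was 35.7% in batch 1 bleomycin, 11.8% in batch 2 bleomycin and 11.3% in saline. Batch 1 bleomycin was not the widest group for every gene. For Ier3 the values were 7.44%, 27.3% and 13.1% in the same order, for Socs3 38.8%, 39.8% and 18.2%, and for Nr4a3 35.5%, 7.4% and 43.0%.

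The Egr genes encode zinc finger transcription factors that bind a shared GC-rich site. Egr1, the best known of them and a regulator of growth and matrix genes, was at 127, 228, 61.2 and 89.7 CPM in batch 1 bleomycin replicates 5 to 8, at 46.2, 42.2, 20.3 and 41.9 CPM in batch 2 bleomycin replicates 1 to 4, and at 28.2, 18.1, 28.8, 36.2 and 30.3 CPM in saline replicates 1 to 5. Every batch 1 bleomycin library was above every other library, while batch 2 replicate 3 lay within the saline range. Egr1 had a log2 change of 2.15 in batch 1 bleomycin against saline (SE 0.37, adjusted p = 0.0014) and 0.40 in batch 2 (SE 0.37, adjusted p = 0.469). Against batch 1 bleomycin, batch 2 had a log2 difference of -1.76 (95% interval -2.64 to -0.87) that missed the threshold at an adjusted p of 0.0579. Without bleomycin replicate 8 that difference was -1.89 and passed (adjusted p = 0.033), as it did without replicate 7 (-1.98, adjusted p = 0.0313).

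Egr2, known from myelinating Schwann cells and from activated macrophages and T cells, had 19.5, 66.3, 18.1 and 21.9 CPM in batch 1 bleomycin, 18.3, 7.55, 11.2 and 13.2 CPM in batch 2 bleomycin, and 3.32, 6.96, 6.35, 5.66 and 5.22 CPM in saline. All 8 bleomycin libraries were above all 5 saline libraries, and batch 1 replicate 6 was far above the other 3 of its group. Its log2 change was 2.53 in batch 1 (SE 0.41, adjusted p = 0.000643), or 1.86 without replicate 6. In batch 2 it was 1.19 (SE 0.42, adjusted p = 0.0487), close to the threshold, and it passed in only 4 of the 13 fits that each left out 1 library, those without bleomycin replicates 2, 5, 6 or 7, with adjusted p from 0.00247 to 0.158 over the 13. The difference of batch 2 from batch 1 bleomycin did not pass (log2 difference -1.34, 95% interval -2.27 to -0.41, adjusted p = 0.153), and it was -0.67 without replicate 6 (adjusted p = 0.347).

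Egr3, a family member known from muscle spindles and T cells, stood at 28.3, 22.4, 9.45 and 12.7 CPM in batch 1 bleomycin, at 6.14, 9.08, 5.24 and 7.62 CPM in batch 2 bleomycin, and at 5.11, 2.44, 4.89, 7.23 and 7.43 CPM in saline. Its batch 1 bleomycin libraries were above all others, and the batch 2 and saline ranges overlapped. The log2 value for Egr3 was 1.74 in batch 1 against saline (SE 0.33, adjusted p = 0.00126), 0.36 in batch 2 against saline (adjusted p = 0.473) and -1.38 in batch 2 against batch 1 bleomycin (SE 0.36, adjusted p = 0.0727). Without bleomycin replicate 8 the last difference was -1.52 and passed (adjusted p = 0.0329), as it did without bleomycin replicate 7 (adjusted p = 0.0392) and without saline replicate 2 (adjusted p = 0.038).

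Nr4a1, Nr4a2 and Nr4a3 encode nuclear receptors that act without a known natural hormone and are set largely by how much of them is made. Nr4a1, also called Nur77 and known from activated T cells and monocytes, was at 123, 69.3, 37.4 and 28.6 CPM in batch 1 bleomycin, at 14.3, 19.3, 10.8 and 16.4 CPM in batch 2 bleomycin, and at 16.5, 15.7, 20.2, 22.2 and 22.4 CPM in saline. All batch 1 bleomycin libraries lay above the rest, and 2 of the 4 batch 2 libraries were above the lowest saline library while 2 were below it. For Nr4a1 the log2 change was 1.73 in batch 1 (SE 0.36, adjusted p = 0.00388) and -0.36 in batch 2 (SE 0.38, adjusted p = 0.526). Batch 2 was lower than batch 1 bleomycin by a log2 difference of -2.09 (SE 0.40, adjusted p = 0.025), the widest of the 10 genes. That call was lost by limma-voom (-1.91, adjusted p = 0.198) and without bleomycin replicates 1, 2, 3, 4 or 6 in turn (adjusted p = 0.0549, 0.0601, 0.113, 0.0812 and 0.0697), and it held in the other 8 of 13 fits.

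Nr4a2, known for its part in dopamine neurons, had 14.0, 10.2, 8.97 and 6.95 CPM in batch 1 bleomycin, 3.82, 6.53, 6.26 and 6.15 CPM in batch 2 bleomycin, and 6.78, 9.05, 10.7, 10.3 and 6.25 CPM in saline. Only replicate 5 of batch 1 bleomycin was above the saline range, and replicates 1 and 4 of batch 2 were below it. Neither change from saline passed, with 0.22 in batch 1 (95% interval -0.28 to 0.72, adjusted p = 0.518) and -0.59 in batch 2 (95% interval -1.12 to -0.06, adjusted p = 0.088). The batch 2 libraries were all below the batch 1 bleomycin libraries, at a log2 difference of -0.81 that did not pass (adjusted p = 0.136) but did without bleomycin replicate 8 (-0.96, adjusted p = 0.0443).

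Nr4a3, the third receptor of the family, spread widely in saline, at 16.1, 44.5, 62.9, 33.2 and 51.9 CPM. It was at 52.3, 37.4, 40.4 and 20.0 CPM in batch 1 bleomycin and at 25.9, 22.5, 23.5 and 22.0 CPM in batch 2 bleomycin, all within the saline range. The batch 2 libraries were the most alike, with a coefficient of variation of 7.4%, beside 35.5% in batch 1 bleomycin and 43.0% in saline. The log2 change was -0.15 in batch 1 (95% interval -0.90 to 0.60, adjusted p = 0.774), with 0.02 without replicate 8, and -0.83 in batch 2 (95% interval -1.61 to -0.05, adjusted p = 0.105). Saline replicate 1 had the lowest level, and without it the batch 2 change was -1.04 and passed (adjusted p = 0.00976).

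Ier2 encodes a nuclear protein of growth factor response, and Ier3 a stress protein tied to cell survival and ERK signalling. Ier2 was at 39.0, 54.4, 34.1 and 32.9 CPM in batch 1 bleomycin, at 28.6, 25.9, 21.8 and 29.9 CPM in batch 2 bleomycin, and at 22.9, 26.7, 22.6, 23.8 and 22.7 CPM in saline. The batch 1 bleomycin libraries were above all others, by a log2 change of 0.76 from saline (SE 0.14, adjusted p = 0.000986), and the batch 2 libraries lay on both sides of the narrow saline range (0.16, adjusted p = 0.455). Batch 2 differed from batch 1 bleomycin by -0.60 (SE 0.16, adjusted p = 0.0647), a difference that passed without bleomycin replicate 8 (-0.69, adjusted p = 0.0212).

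Ier3 was at 33.0, 38.8, 33.5 and 35.4 CPM in batch 1 bleomycin, at 42.0, 24.8, 27.2 and 25.5 CPM in batch 2 bleomycin, and at 41.6, 35.5, 39.5, 34.1 and 29.6 CPM in saline. All 4 batch 1 libraries were within the saline range, while 3 batch 2 libraries were below it and replicate 1 above it. For Ier3 the log2 change was -0.04 in batch 1 (95% interval -0.35 to 0.28, adjusted p = 0.883) and -0.28 in batch 2 (95% interval -0.60 to 0.04, adjusted p = 0.189). Without batch 2 replicate 1 the batch 2 change was -0.48 and passed (adjusted p = 0.0128).

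Socs3, made in response to STAT3 and an inhibitor of the receptors of the IL-6 family, was at 59.7, 167, 130.0 and 106 CPM in batch 1 bleomycin, at 93.0, 44.1, 45.4 and 51.4 CPM in batch 2 bleomycin, and at 15.8, 12.6, 17.2, 20.5 and 14.7 CPM in saline. Every bleomycin library was above every saline library, and the bleomycin groups overlapped through batch 1 replicate 5 and batch 2 replicate 1. Socs3 had a log2 change of 2.83 in batch 1 (SE 0.30, adjusted p = 4.55e-05) and 1.84 in batch 2 (SE 0.30, adjusted p = 0.000915), and both calls held in all 13 fits that left out 1 library. The difference between the bleomycin groups was -0.99 (95% interval -1.67 to -0.31) and did not pass (adjusted p = 0.151). It passed without bleomycin replicate 1 (-1.31, adjusted p = 0.0346) and without replicate 5 (-1.21, adjusted p = 0.0389).

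Zfp36, also called tristetraprolin, binds AU-rich elements and starts the decay of the mRNAs that carry them. It was at 98.3, 141, 74.2 and 65.7 CPM in batch 1 bleomycin, at 42.0, 47.3, 36.2 and 38.7 CPM in batch 2 bleomycin, and at 39.8, 33.9, 46.3, 43.1 and 40.2 CPM in saline. The batch 1 bleomycin libraries were above all others, and the batch 2 libraries stood in or just above the saline range. The log2 change was 1.22 in batch 1 (SE 0.18, adjusted p = 0.000182) and 0.01 in batch 2 (95% interval -0.38 to 0.41, adjusted p = 0.969). Batch 2 was lower than batch 1 bleomycin by a log2 difference of -1.21 (SE 0.20, adjusted p = 0.00629), which passed in all 13 fits that left out 1 library and by DESeq2 and limma-voom. In the GENCODE M21 annotation a gene on the other strand, Gm44710, overlaps Zfp36, and the strand setting of the counting is not given in the sources used here. Gm44710 averaged 1.37 CPM in batch 1 bleomycin, 1.85 CPM in batch 2 bleomycin and 2.65 CPM in saline.

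**Figure D2:**
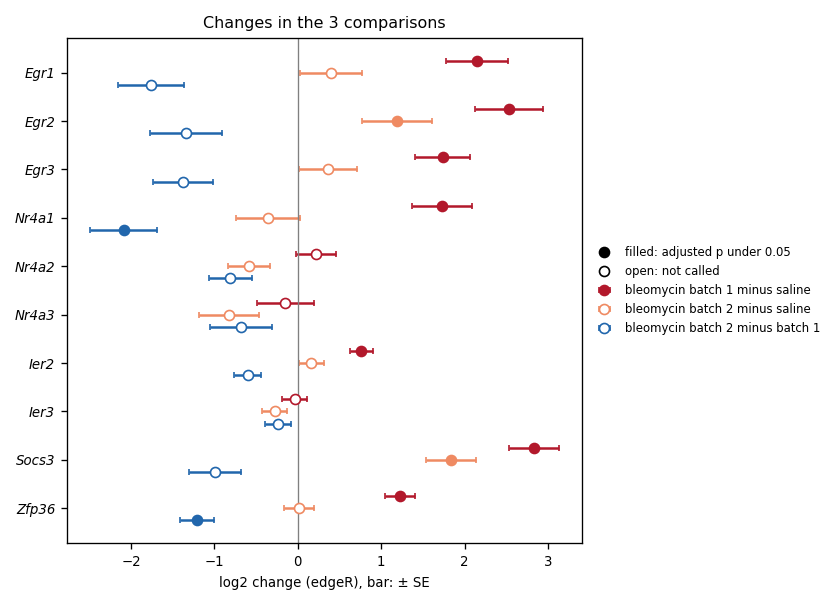
Log2 changes from edgeR with bars of ± 1 SE for batch 1 bleomycin minus saline (dark red), batch 2 bleomycin minus saline (orange) and batch 2 minus batch 1 bleomycin (blue); filled points passed at an adjusted p under 0.05. The filled points number 7, 2 and 2 in these comparisons, and all 10 blue points lie below 0.

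The plot of log2 changes sets the comparisons side by side. In it Socs3 has the largest change from saline in both bleomycin groups, while Ier3 stays within 0.28 log2 units of 0 in all of them.

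Leaving out bleomycin replicate 8, the library with conflicting labels, left the 7 calls of batch 1 bleomycin against saline in place (13.8% of all genes were then called higher), with log2 changes of 2.84 for Socs3, 2.63 for Egr2, 2.26 for Egr1, 1.95 for Nr4a1, 1.85 for Egr3, 1.33 for Zfp36 and 0.81 for Ier2. Socs3 passed without it in batch 2 against saline and Egr2 did not (1.15, adjusted p = 0.0608). Between batch 2 and batch 1 bleomycin 6 genes passed as lower without it, in place of 2, namely Egr1, Egr3, Nr4a1, Nr4a2, Ier2 and Zfp36, while over all genes the share called lower was 3.3% without it and 1.13% with it. Placed in the saline group, as its title says, it left 3 genes higher in batch 1 bleomycin (Nr4a1, Ier2 and Zfp36, where 1.88% of all genes were called higher) and none in batch 2, with 645 genes called in all in batch 1 (6319 without the move) and 945 in batch 2 (5911 without it). With that placement the batch 1 changes that no longer passed were 2.07 for Egr2 (adjusted p = 0.0636), 1.92 for Socs3 (adjusted p = 0.11), 1.85 for Egr1 (adjusted p = 0.0609) and 1.59 for Egr3 (adjusted p = 0.0506).

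Per length, the levels of the genes had a different order in each group. In CPM per kilobase of GENCODE M21 exon length, batch 1 bleomycin had Socs3 first at 40.0 ± 15.5, then Ier3 at 31.1 ± 2.32, Egr1 at 28.2 ± 16.2, Zfp36 at 27.3 ± 9.75, Ier2 at 26.4 ± 6.51 and Nr4a1 at 18.4 ± 12.2 (mean ± SD, n = 4). Neighbours in this order differed by less than the larger SD of the pair. In batch 2 bleomycin Ier3 led with 26.4 ± 7.21, ahead of Socs3 at 20.2 ± 8.04, Ier2 at 17.4 ± 2.34 and Zfp36 at 11.8 ± 1.39 (n = 4), and only the last step exceeded both SDs. In saline Ier3 led with 31.9 ± 4.17, ahead of Ier2 at 15.6 ± 1.12 and Zfp36 at 11.7 ± 1.32, and Socs3 was at 5.59 ± 1.02 (n = 5). Egr2, Egr3 and Nr4a2 had the lowest levels in saline, at 1.62 ± 0.408, 1.23 ± 0.462 and 2.12 ± 0.50.

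The 10 genes did not vary as 1 block across libraries. The mean of their standardised log2 CPM was highest in bleomycin replicates 6 (1.59) and 5 (1.23), then in replicates 7 (0.56) and 8 (0.37), and it was below 0 in all batch 2 and saline libraries. Bleomycin replicate 6 held the highest level of 5 genes and replicate 5 of 3, and saline replicate 2 the lowest of 4. Over the 13 libraries, which differ in group and depth, the correlation of each gene with the mean of the other 9 was 0.97 for Zfp36, 0.92 for Egr1, 0.90 for Nr4a1, 0.89 for Ier2, 0.80 for Egr3, 0.76 for Egr2, 0.60 for Socs3, 0.45 for Nr4a2, 0.23 for Nr4a3 and 0.16 for Ier3. These values describe the 13 libraries and hold the differences between groups.

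**Figure D3:**
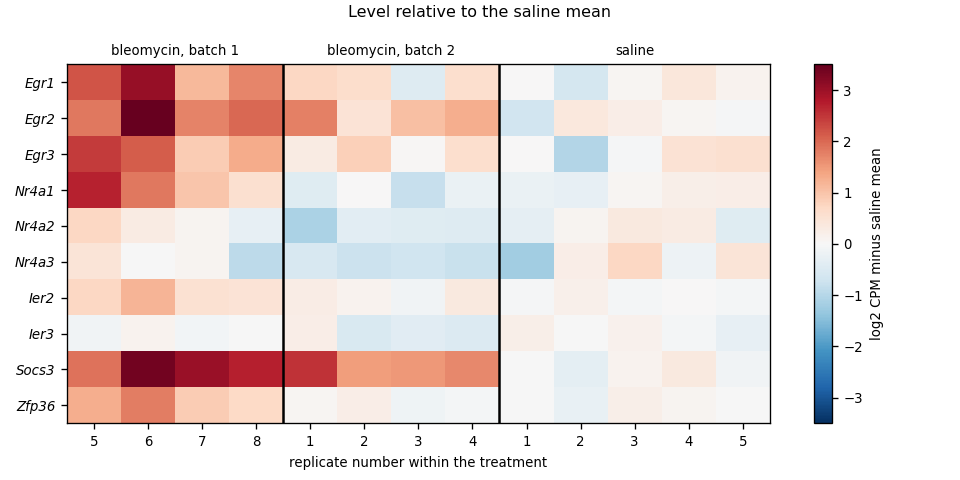
Log2 CPM of each of the 10 genes (rows) in each library (columns, by group and replicate number) minus the mean of the saline libraries, red above and blue below that mean. Batch 1 bleomycin replicates 5 and 6 are the reddest columns, and Socs3 and Egr2 are red in both bleomycin groups.

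The map of levels relative to saline shows the order of the libraries gene by gene: replicate 5 leads for Egr3, Nr4a1 and Nr4a2, and replicate 6 for Egr1, Egr2, Ier2, Socs3 and Zfp36.

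With group means removed, Egr1 was compared with each of the other 9 genes over the 13 libraries, by permutation within groups (100000 resamples, two-sided) and Benjamini-Hochberg adjustment over 9. Zfp36 varied with Egr1, with a Pearson r of 0.83 (p = 0.00611, adjusted p = 0.0275) and a Spearman rho of 0.77 (p = 0.0105, adjusted p = 0.0614), and Egr3 did with an r of 0.78 (p = 0.00545, adjusted p = 0.0275) and a rho of 0.69 (p = 0.0228, adjusted p = 0.0614). Neither rho passed after adjustment. Without the 2 libraries farthest from the median of Egr1, bleomycin replicates 7 and 3, r was 0.87 for Zfp36 and 0.70 for Egr3. Without bleomycin replicate 8 neither r passed (adjusted p = 0.0616 for Zfp36 and 0.0823 for Egr3). Ier2 had an r of 0.72 (permutation adjusted p = 0.132), Nr4a1 of 0.63 (permutation adjusted p = 0.253) and Egr2 of 0.50 (permutation adjusted p = 0.366), and none of these passed. Socs3 was at 0.36, Ier3 at 0.23, Nr4a2 at 0.09 and Nr4a3 at 0.04.

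**Figure D4:**
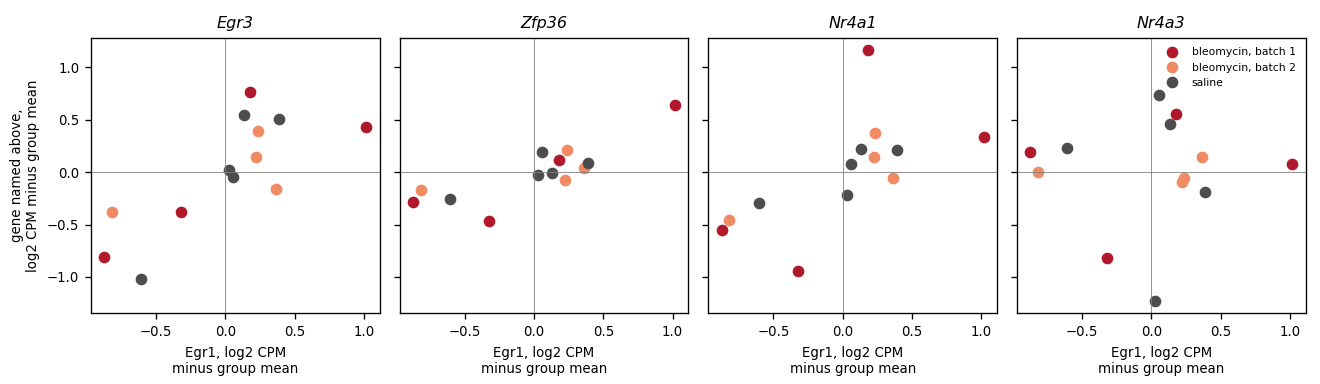
Log2 CPM of Egr3, Zfp36, Nr4a1 and Nr4a3 against that of Egr1, each minus its group mean, for 13 libraries coloured by group. Pearson r is 0.78, 0.83, 0.63 and 0.04 in this order of panels.

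The plot of levels within groups shows the points of Zfp36 and Egr3 going up with Egr1 and those of Nr4a3 scattered.

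Outside the 10 genes, the 6 genes most like their mean profile over the 13 libraries, among 13023 genes of at least 5 CPM on average, were Gm45222 (r = 0.97), Fos (0.96), Gm44716 (0.95), Gm45220 (0.95), Picalm (0.94) and Gm45221 (0.94). Fos, a subunit of the AP-1 transcription factor, averaged 56.0 ± 19.4 CPM in batch 1 bleomycin, 19.5 ± 5.35 CPM in batch 2 bleomycin and 17.6 ± 3.89 CPM in saline. Picalm encodes a clathrin assembly protein, and Gm45222, Gm45220 and Gm45221 lie inside it on the same strand in GENCODE M21, so reads may be shared between them. Gm44716 likewise lies inside Col4a1, and these Gm models are of the type that the annotation holds for experimental follow-up. Picalm averaged 517 ± 88.8 CPM in batch 1 bleomycin, 324 ± 53.5 CPM in batch 2 bleomycin and 292 ± 18.6 CPM in saline.

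Of 8 AP-1 factors, which dimerise on target promoters and are induced by the same signals, 6 rose in batch 1 bleomycin against saline and 0 fell, with the same counts at an unadjusted p under 0.05, by DESeq2 and by limma-voom. The list's median log2 change was 1.43, beside 0.03 over all genes. Among all genes tested 17.5% rose and 13.4% fell in batch 1, and 15.7% rose and 13.2% fell in batch 2. Between batch 2 and batch 1 bleomycin 1.13% of all genes were lower and 0.547% higher. Junb averaged 78.3 ± 17.4 CPM in batch 1 bleomycin, 54.9 ± 11.7 CPM in batch 2 bleomycin and 24.8 ± 1.25 CPM in saline, and rose in both against saline (1.66, adjusted p = 1.56e-06, and 1.14, adjusted p = 4.69e-05). Fosl2 rose by 1.20 in batch 1 (adjusted p = 1.27e-05), Atf3, a stress factor, by 1.93 (adjusted p = 0.000126) and Fos by 1.67 (adjusted p = 0.000144). Batch 2 against saline had 2 of the 8 higher, Junb and Atf3, and 0 lower (by edgeR 1 at an unadjusted p under 0.05, by DESeq2 and limma-voom 0). Fos, Fosb and Fosl2 were lower in batch 2 than in batch 1 bleomycin, by log2 differences of -1.52 (adjusted p = 0.009), -1.88 (adjusted p = 0.00933) and -0.96 (adjusted p = 0.00342), and no AP-1 gene was higher (0 also at an unadjusted p under 0.05 and by both other tools).

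Of 11 tested other early transcription factors (12 listed), 6 rose in batch 1 bleomycin and 0 fell, with 0 lower also at an unadjusted p under 0.05 and by DESeq2 and limma-voom. The list's median was 0.31. Among all genes tested 17.5% rose and 13.4% fell in batch 1, and 15.7% rose and 13.2% fell in batch 2. Between batch 2 and batch 1 bleomycin 1.13% of all genes were lower and 0.547% higher. Nfil3, a leucine zipper repressor of immune cells, averaged 20.6 ± 8.0 CPM in batch 1 bleomycin, 6.35 ± 2.79 CPM in batch 2 bleomycin and 2.84 ± 0.281 CPM in saline (batch 1 change 2.85, SE 0.27, adjusted p = 2.63e-06). Myc, a driver of growth, rose by 1.65 (adjusted p = 0.000236), Cebpd, a factor of the acute-phase response, by 1.05 (adjusted p = 0.000899) and Csrnp1 by 1.03 (adjusted p = 0.00269). In batch 2 against saline 1 rose, Nfil3 (1.14, adjusted p = 0.00578), and 3 fell, among them Klf4 (-0.85, adjusted p = 0.000592) and Klf6 (-0.70, adjusted p = 0.000275), zinc finger factors of epithelium and endothelium. Against batch 1 bleomycin 6 of the 11 were lower in batch 2 (Nfil3 -1.71, Csrnp1 -1.38, Cebpd -1.01, Klf4 -0.74, Klf6 -0.67, Klf2 -0.66, adjusted p from 0.00596 to 0.021) and 0 were higher, as at an unadjusted p under 0.05 and by both other tools. Klf4 and Klf6 averaged 151 ± 29.3 and 214 ± 34.1 CPM in batch 1 bleomycin, 90.4 ± 7.06 and 134 ± 14.0 CPM in batch 2 bleomycin, and 162 ± 33.1 and 217 ± 17.4 CPM in saline, and did not pass in batch 1 against saline.

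Among 28 feedback and other early response genes, 17 rose in batch 1 bleomycin and 0 fell, although 2 had lower values at an unadjusted p under 0.05, 1 fell by DESeq2 and 0 by limma-voom. In batch 2 against saline 9 rose and 3 fell, beside 15.7% and 13.2% of all genes tested. The shares over all genes were 17.5% and 13.4% in batch 1 against saline. Between batch 2 and batch 1 bleomycin 1.13% of all genes were lower and 0.547% higher. The list's median log2 change was 0.59 in batch 1 and 0.19 in batch 2, beside 0.03 and -0.01 over all genes. Tnfaip3, an inhibitor of NF-kappaB, rose by 1.40 in batch 1 (adjusted p = 4.1e-06) and by 0.88 in batch 2 (adjusted p = 0.000319). Dusp2 and Dusp5, phosphatases that switch off MAP kinases, rose by 2.15 and 1.28 in batch 1 (adjusted p = 0.000203 and 0.000228) and by 1.74 and 0.69 in batch 2 (adjusted p = 0.00148 and 0.0195). Spry4, an inhibitor of receptor tyrosine kinase signalling, rose in batch 1 by 1.26 (adjusted p = 6.53e-05). Against batch 1 bleomycin 6 genes were lower in batch 2, namely Errfi1 (-1.21, adjusted p = 0.0146), Dusp1 (-0.97, adjusted p = 0.0451), Btg2 (-0.93, adjusted p = 0.0131), Spry4 (-0.83, adjusted p = 0.0301), Sgk1 (-0.73, adjusted p = 0.0145) and Trib1 (-0.62, adjusted p = 0.0446). None was higher (0 also at an unadjusted p under 0.05 and by both other tools).

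Some of the signalling proteins upstream of the early response are encoded by the next list. Of 20 genes for MAP kinases, SRF partners and CREB, 7 rose and 1 fell in batch 1 bleomycin against saline, and 7 rose and 3 fell in batch 2. Among all genes tested 17.5% rose and 13.4% fell in batch 1, and 15.7% rose and 13.2% fell in batch 2. The list's median log2 change was 0.23 in batch 1 and 0.05 in batch 2, beside 0.03 and -0.01 over all genes. Between the bleomycin groups 0 of the 20 passed in edgeR, with 5 lower and 0 higher at an unadjusted p under 0.05 and 0 by DESeq2 and limma-voom. Without bleomycin replicate 8, 4 of the 20 were lower, beside 3.3% of all genes, and the difference from the other lists was not tested. Mrtfa, an SRF coactivator, averaged 50.8 ± 9.82 CPM in batch 1 bleomycin, 50.5 ± 5.92 CPM in batch 2 bleomycin and 26.3 ± 1.69 CPM in saline, with changes of 0.95 (adjusted p = 5.42e-05) and 0.94 (adjusted p = 7.7e-05). Elk3, a partner of SRF, rose by 0.63 and 0.66 in batch 1 and batch 2 (adjusted p = 0.000948 and 0.000876), Mrtfb by 0.48 and 0.53 (adjusted p = 0.00381 and 0.00222) and Map2k1, a kinase of ERK, by 0.44 and 0.51 (adjusted p = 0.00829 and 0.00369).

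The next 21 genes were of the IL-6 family, JAK-STAT3 and SOCS proteins, which hold the signals that act on Socs3. Of them 10 rose and 3 fell in batch 1 bleomycin against saline, and 10 rose and 5 fell in batch 2. Among all genes tested 17.5% rose and 13.4% fell in batch 1, and 15.7% rose and 13.2% fell in batch 2. The list's median log2 change was 0.48 in batch 1 and 0.20 in batch 2, beside 0.03 and -0.01 over all genes. Il6 itself was at 2.06, 21.1, 2.91 and 3.01 CPM in batch 1 bleomycin, at 0.664, 1.02, 0.507 and 0.879 CPM in batch 2 bleomycin, and at 0.17 CPM (4 counts) in saline replicate 1 with 0 counts in the other 4. Batch 1 replicate 6, the library with the highest Egr1, Egr2, Socs3 and Zfp36, had the highest Il6. Replicate 5, with the next highest Egr1 and Zfp36 and the lowest Socs3 of batch 1 bleomycin, had the lowest Il6 of that group. Replicate 8 had more Il6 than replicate 7 but less Socs3 (106 against 130 CPM). In batch 2, replicate 1 had the highest Socs3 (93.0 CPM) with Il6 at 0.664 CPM (4 counts). Replicate 2 had the lowest Socs3 of batch 2 (44.1 CPM) with its highest Il6, 1.02 CPM (10 counts). Whether Socs3 varies with Il6 was not tested. Il6 was called higher in both bleomycin groups (adjusted p = 0.000131 and 0.0181), with no fold given because the fitted value depends on the prior count. Osmr, the oncostatin M receptor, averaged 182 ± 52.9 CPM in batch 1 bleomycin, 140.0 ± 23.7 CPM in batch 2 bleomycin and 73.5 ± 8.78 CPM in saline (changes of 1.31, adjusted p = 6.03e-05, and 0.93, adjusted p = 0.001). Stat3 rose by 0.74 and 0.67 in batch 1 and batch 2 (adjusted p = 0.000134 and 0.000362) and the kinase Jak1 by 0.56 and 0.57 (adjusted p = 0.000216 and 0.000213). Against batch 1 bleomycin 1 of the 21 was lower in batch 2, Cish, a SOCS family inhibitor (-0.49, adjusted p = 0.0465), and 0 were higher, as at an unadjusted p under 0.05 and by both other tools. Over all genes 1.13% were lower and 0.547% higher in that comparison.

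The last list holds the ZFP36 family, mRNAs known for AU-rich elements, and Elavl1, Khsrp and Hnrnpd, which encode other proteins that bind such elements. Of its 14 tested genes (16 listed, Il6 also in the list above), 11 rose and 1 fell in batch 1 bleomycin, and 6 rose and 0 fell in batch 2. Among all genes tested 17.5% rose and 13.4% fell in batch 1, and 15.7% rose and 13.2% fell in batch 2. Between batch 2 and batch 1 bleomycin 1.13% of all genes were lower and 0.547% higher. In batch 2, 0 were lower also at an unadjusted p under 0.05 and by both other tools, and 1 was higher by limma-voom. The list's median log2 change was 1.04 in batch 1 and 0.61 in batch 2, beside 0.03 and -0.01 over all genes. Il1b, an inflammatory cytokine, averaged 13.1 ± 4.53 CPM in batch 1 bleomycin, 7.35 ± 3.65 CPM in batch 2 bleomycin and 3.03 ± 1.48 CPM in saline (changes of 2.08, adjusted p = 0.00126, and 1.23, adjusted p = 0.0338). Ccl2, a monocyte chemokine, rose by 4.00 in batch 1 (SE 0.72, adjusted p = 0.00141) and by 2.72 in batch 2 (SE 0.73, adjusted p = 0.0152). Its levels were low in saline and spread widely after bleomycin. They averaged 12.8 ± 10.2 CPM in batch 1 bleomycin, 5.37 ± 5.26 CPM in batch 2 bleomycin and 0.785 ± 0.321 CPM in saline. Zfp36l2, a relative of Zfp36, rose by 0.59 and 0.37 in batch 1 and batch 2 (adjusted p = 0.000983 and 0.022). Ptgs2, the inducible cyclooxygenase, rose by 0.95 in batch 1 (adjusted p = 0.00344) and was the 1 gene of the list lower in batch 2 than in batch 1 bleomycin (-1.03, adjusted p = 0.036).

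**Figure D5:**
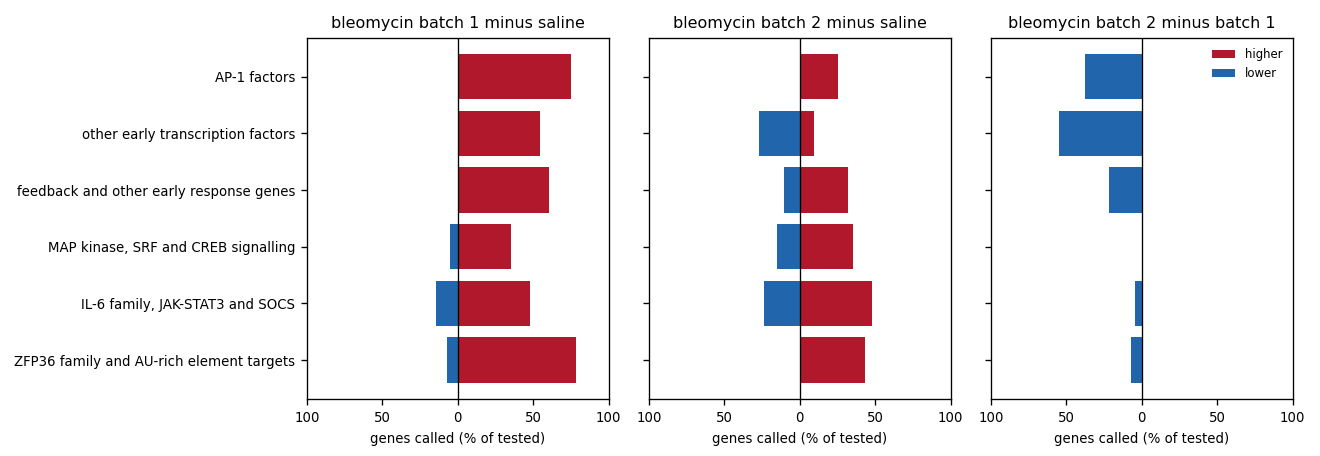
Share of the tested genes of each of 6 lists (rows) called higher (red, to the right) or lower (blue, to the left) at an adjusted p under 0.05 in the 3 comparisons (panels), in percent of the genes tested. In the panel of batch 2 against batch 1 bleomycin only blue bars are seen, and the MAP kinase, SRF and CREB list has none, although 4 of its 20 genes were lower without bleomycin replicate 8. Over all genes 3.3% were lower without that library.

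The plot of called shares puts the lists beside each other. Over all genes tested, 17.5% were called higher and 13.4% lower in batch 1 against saline. The shares were 15.7% and 13.2% in batch 2 against saline, and 0.547% and 1.13% in batch 2 against batch 1 bleomycin.

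Markers of other cells moved between bleomycin and saline as well. Against saline, 17.5% of all genes tested were called higher and 13.4% lower in batch 1, and 15.7% and 13.2% in batch 2. The marker counts were not tested against these shares. Of 6 tested neutrophil markers 3 were higher in batch 1 bleomycin and 0 in batch 2 (by edgeR 2 at an unadjusted p under 0.05, by DESeq2 2, by limma-voom 0), at a summed 40.2 to 125 CPM in batch 1 bleomycin, 46.1 to 108 CPM in batch 2 bleomycin and 17.6 to 54.5 CPM in saline. The batch 1 count was 3 by DESeq2, 1 by limma-voom and 1 by edgeR without bleomycin replicate 8. Of 7 macrophage and monocyte markers 6 were higher in batch 1 bleomycin and 7 in batch 2, at 1616 to 2067, 2286 to 2819 and 1408 to 1785 CPM in batch 1 bleomycin, batch 2 bleomycin and saline. Of 7 T cell markers 3 were higher in each bleomycin group (44.1 to 66.8, 44.7 to 64.7 and 16.6 to 48.5 CPM in the same order), and of 5 B cell markers 5 in batch 1 and 4 in batch 2 (43.4 to 85.8, 39.9 to 96.2 and 12.4 to 30.6 CPM). Markers that fell against saline included 5 of 7 of endothelium in batch 1 and 3 in batch 2 (965 to 1360, 1107 to 1277 and 1382 to 1715 CPM), 6 of 7 of alveolar epithelium in batch 1 and 1 in batch 2, and 5 of 6 of airway epithelium in both (2337 to 3531, 2443 to 6523 and 6962 to 12846 CPM). Fibroblast markers had 2 of 7 higher in both bleomycin groups, 3 lower in batch 1 and 2 lower in batch 2 (2513 to 7347, 3789 to 7562 and 1783 to 2022 CPM), and smooth muscle and pericyte markers 1 of 6 higher and 2 lower in both (773 to 1333, 864 to 1076 and 1109 to 1293 CPM). Of 6 heart muscle markers 0 were called by edgeR, at an unadjusted p under 0.05 or by the other tools, at 604 to 4080, 108 to 2945 and 641 to 1045 CPM.

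Between the bleomycin groups 1 of all these markers passed, an alveolar epithelial marker that was higher in batch 2. At an unadjusted p under 0.05 there were 9 higher and 1 lower, and DESeq2 called 4 higher and limma-voom 0. Over all genes edgeR called 0.547% higher in that comparison, DESeq2 283 of 23820 and limma-voom 74 of 20468. No share of all genes at the unadjusted threshold is given. None of the markers was at 0 in all libraries. Mitochondrial genes held 4.69% to 7.78% of the counts in batch 1 bleomycin, 6.88% to 9.65% in batch 2 bleomycin, and in saline libraries the share was 5.26% to 9.39%. The part of these cell markers, of depth and of batch in the levels of the 10 genes was not tested, and batch and treatment cannot be told apart where batch 2 bleomycin is set against saline.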

How the data were processed

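Libraries of total RNA from 13 sections were made with a stranded Pico input kit of the SMARTer line, per the labels' protocols. The authors deposited whole-number counts per gene, not normalized; cutadapt 4.4, STAR 2.7.10b, featureCounts 2.0.3, DESeq2 1.42.1 and build mm39 are named in the submitters' processing notes. What each tool did, how strand was set and whether molecular identifiers were used is not given in the sources used here. A second deposited table, a signal per gene normalized by the authors, equals the count divided by a size factor (0.394 to 1.941). Of its values, 100% gave whole reads within 0.05. The size factors were taken from the counts themselves, so these reads are the counts again and a fit to them is no separate check. That edgeR fit, a choice made after seeing the data, called 6319, 5911 and 343 genes as on the counts. Even numbers were 78.4% to 86.1% of counts from 1 to 10, so both reads of a pair appear counted. The table has 0 columns without a sample.

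Genes were filtered with filterByExpr, TMM-scaled and tested with edgeR 4.0.16 (R 4.3.3, robust quasi-likelihood, 3 group means, 13 libraries, Benjamini-Hochberg over 20468 genes); the biological coefficient of variation was 0.306. SE is the log2 change over the root of F, and 95% intervals use the fit's degrees of freedom. The fit was also run on simulated counts that had the same dispersion for every gene and group, unlike the data, and its outcome is not reported here. Alternatives were other scalings and filters, DESeq2 1.42.0, limma 3.58.1, replicate 8 as saline and leaving out each library. No library repeats another of its own group (chi-square per degree of freedom 10.1 to 266.7 over 22 pairs), and pairs across groups were not compared. The labels do not say that libraries are separate animals, so p-values measure the spread between these samples, which may be technical.

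The 10 genes, the lists and the tests were chosen with earlier results of these data known. Named genes are all 10, up to 4 genes per pathway list by lowest p in batch 1 bleomycin against saline, any list gene called between the bleomycin groups, and the 6 genes most like the mean profile. Log2 CPM for profiles and correlations used a prior count of 2. Gene types and lengths came from GENCODE M21 by symbol and promoters from RefSeq GRCm38.p6; no coordinates were moved between builds. Protein sequences were not used here.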

Additional observations from a re-analysis of the deposited data

Results flagged for a closer look

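Single samples far from the rest of their group were found in 6 of 30 groups of one gene each (Dixon's test at its 95% critical value, which chance passes in about 1 of 20). In batch 1 bleomycin, Egr2 in replicate 6 was far above the others at 66.3 CPM. In batch 2 bleomycin, Egr1 in replicate 3 (20.3 CPM) and Nr4a2 in replicate 1 (3.82 CPM) lay far below the others, and Ier3 (42.0 CPM) and Socs3 (93.0 CPM) in replicate 1 far above. In saline, Ier2 in replicate 2 was far above the others at 26.7 CPM, within a narrow range.

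Batch 2 and batch 1 bleomycin libraries differed, by the test of that difference, for Nr4a1 (log2 difference -2.09, edgeR adjusted p = 0.025) and Zfp36 (-1.21, edgeR adjusted p = 0.00629). The Nr4a1 call was lost by limma-voom (adjusted p = 0.198) and in 5 of 13 fits that left out 1 library. Batch 2 has no saline library, so the response to bleomycin was not measured within it.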

How the results depend on the processing

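Of 680 values of the 10 genes under other settings, 616 kept their direction and side of the threshold, 27 lost and 19 gained a call, and 18 turned sign. The 616 include the values from the reads recovered from the normalized table, which could only repeat the main fit. The 7 genes higher in batch 1 bleomycin stayed 7 in all settings except replicate 8 as saline (3, with 645 genes called, 945 in batch 2). In batch 2 against saline, 1 gene in place of 2 was higher with RLE or upper-quartile factors, no filter, protein-coding genes only, limma-voom or the replicate block, 1 to 2 over the fits that left out 1 library, and 0 with replicate 8 as saline. Lower were 1 by DESeq2, 1 with the replicate block (Nr4a2 -0.71, adjusted p = 0.0357) and 0 to 1 when a library was left out. The replicate block left Socs3 at 1.76 (adjusted p = 0.0025) and the samples share only a number: deviations of same-numbered batch 2 bleomycin and saline libraries correlated at -0.113, -0.349, -0.06 and -0.123, and no library correlated best with its own number. Between batch 2 and batch 1 bleomycin, 85 genes were called with protein-coding genes only, 704 by DESeq2, 102 by limma-voom and 148 to 1093 when a library was left out, in place of 343, and 7 of the 10 genes were lower by DESeq2, 1 by limma-voom and 1 to 6 when a library was left out. With Egr1, 0 genes varied without replicate 8, in place of 2; r was then -0.01 for Nr4a2 and -0.07 for Nr4a3.

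No value that had passed the test turned sign. Zfp36 in batch 2 against saline was -0.02 with RLE factors, by DESeq2 and for the normalized values, -0.03 with upper-quartile factors, -0.003 without a filter, -0.04 for protein-coding genes, -0.01 by limma-voom, -0.13 with replicate 8 as saline, -0.0002 with the replicate block, and -0.08 to 0.06 when a library was left out (-0.07 without bleomycin replicate 2, -0.03 without 8, -0.08 without saline replicate 2, -0.01 without 4). Egr1 there was -0.05 with replicate 8 as saline. In batch 1 against saline, Nr4a3 was 0.19 with replicate 8 as saline and -0.37 to 0.04 when a library was left out (0.02 without bleomycin replicate 8, 0.04 without saline replicate 3), Ier3 -0.1 to 0.01 (0.01 without saline replicate 1), and Klf6 0.01 without a filter, 0.12 with replicate 8 as saline and -0.09 to 0.03 when a library was left out (0.02 without bleomycin replicate 7, 0.03 without 8). The causes were not tested.

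Batch 2 bleomycin is the shallowest set and its lowest count of these genes is 23 (Nr4a2, replicate 1). Fewer calls between the bleomycin groups do not show that values were alike.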
